A study of Homo sapiens with 24 samples.

Results

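The genes described here are 9 that encode the actin filament of non-muscle cells and proteins that lie along it: the actins ACTB and ACTG1, the tropomyosins TPM1, TPM2, TPM3 and TPM4, the transgelins TAGLN and TAGLN2, and the myosin regulatory light chain MYL9. They were chosen by name, as 9 of the 35579 genes to which the deposited transcripts could be matched, and all 143 of their listed transcripts were used, as gene sums and as shares of each gene. The RNA came from A549, an established human lung adenocarcinoma line that the labels call lung epithelial and wild type, so every value rests on 1 cell line. Polyadenylated RNA was sequenced in 24 libraries from 2 experiments that bear on the kinase TAOK2 and the processing of nuclear RNA. In the whole-cell experiment the groups were a pool of siRNAs against TAOK2, a non-targeting control pool, compound 2 and its vehicle DMSO, each with 3 libraries, 1 from every batch (A, B and C). Both siRNA pools were used at 30 nM by lipid transfection; per the labels compound 2 inhibits the kinase activity of TAOK2, at a dose and for a time that no source used here gives. In the fractionation experiment, cells with TAOK2 siRNA or control siRNA were the source of total, nuclear and cytoplasmic RNA, each with 1 library from batch 1 and 1 from batch 2. The titles of all whole-cell libraries hold the word mock, unexplained there, and those of the fractionation libraries do not.

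Actin monomers polymerise into filaments that give a cell its cortex, its stress fibres and its protrusions. Tropomyosins are coiled-coil dimers that wind along those filaments and set which myosins and severing proteins can bind. Their genes make several forms by choosing among alternative first exons, mutually exclusive internal exons called 6a and 6b, and alternative last exons 9a to 9d. Not every gene has every choice: in the annotated transcripts used here only first coding exon 1a was found for TPM2, and no exon 6 pair for TPM4. Transgelins cross-link filaments, and phosphorylation of regulatory light chains such as MYL9 switches on contraction. Many of these genes are known targets of serum response factor (SRF) and its actin-sensing coactivators, the MRTFs, which act through a DNA element named the CArG box.

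Values are in TPM, a length-corrected abundance that sums to 1000000 in each library, so the read depth behind a value is unknown beyond the stated minimum of 100000000 reads per library. Together the 9 genes made up 0.956% to 1.38% of all TPM in whole cells and 0.230% to 0.670% in the fractionation libraries. TAOK2 itself stood at 8.56 to 12.5 TPM with TAOK2 siRNA, against 34.3 to 40.3 TPM with control siRNA, and at 20.5 to 30.7 TPM with compound 2, against 37.5 to 40.6 TPM with DMSO. The keratins KRT8, KRT18 and KRT7, which mark epithelial cells, lay above 1667 TPM in every whole-cell library. The epithelial markers EPCAM and CDH1 were low there, at 3.72 to 12.2 TPM and 4.255 to 25.7 TPM. The 13 smooth muscle and fibroblast markers summed to between 22.6 and 64.5 TPM there; MYH11 and DES, which define smooth muscle, did not pass 0.582 and 0.0886 TPM. The control siRNA library of batch B did not vary with the other libraries of its batch, and its pairing is doubtful. The libraries are not stated to be separate cultures, so p-values measure the spread between these libraries, which may be technical. In bulk RNA, a lower level in all cells cannot be told apart from fewer cells that express a gene.

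In whole cells with TAOK2 siRNA, 4 of the 9 genes rose and 0 fell: TPM4, TAGLN2, TPM3 and ACTB. Over all 13106 genes tested, 22.2% were called, 7.78% as higher and 14.4% as lower (limma on log2(TPM + 1), Benjamini-Hochberg adjusted p under 0.05). Centring each library on its median gene gave 1301 genes higher and 1385 lower in place of 1020 and 1885, and 5 of the 9 higher. The median log2 change was 0.40 for the 9 genes and -0.05 for all genes tested. With batch as a block the number higher was 7, with TPM2, TAGLN and MYL9 added, where 10.4% of all genes were higher and 17.5% lower. Without a block, leaving out the control siRNA library of batch B gave 3 higher in place of 4.

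Both cytoplasmic actins were among the most abundant messages, and they moved little. ACTB (7:5527147-5563784, minus strand, GRCh38), which encodes beta-actin, had 3005, 3255 and 3273 TPM with TAOK2 siRNA, against 2727, 2688 and 2825 TPM with control siRNA. These groups did not overlap, and the log2 change was 0.21 ± 0.07 (moderated standard error, limma adjusted p = 0.0401), but leaving out 1 library at a time took the adjusted p as high as 0.129. ACTG1 (17:81509971-81523847, minus strand), which encodes gamma-actin, had 4759, 5171 and 4980 TPM with TAOK2 siRNA, against 4552, 4147 and 4605 TPM with control siRNA. Every TAOK2 siRNA library was above every control siRNA library, yet the log2 change of 0.17 ± 0.08 did not pass (limma adjusted p = 0.172). Both genes have many processed pseudogenes, so their estimates carry the uncertainty of how reads were shared among near copies.

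TPM4 had the smallest p of the 9 genes. It lies at 19:16067021-16103005 on the plus strand and makes short, widely expressed tropomyosins of stress fibres. It had 633, 690 and 696 TPM with TAOK2 siRNA, against 431, 453 and 473 TPM with control siRNA. The gap between the groups was several times the spread within either, and the log2 change was 0.57 ± 0.05 (1.49-fold, limma adjusted p = 2.97e-05). Within batches A, B and C the log2 difference was 0.55, 0.61 and 0.56. TPM3 (1:154155304-154194648, minus strand), another source of short cytoskeletal forms, had 706, 690 and 703 TPM with TAOK2 siRNA, against 609, 608 and 584 TPM with control siRNA. This too was a difference without overlap, a log2 change of 0.22 ± 0.05 (limma adjusted p = 0.00911).

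TPM2 and TPM1, which also make the long muscle-type forms, were less clear. TPM2 (9:35681992-35690121, minus strand) had 320, 418 and 366 TPM with TAOK2 siRNA, against 263, 273 and 294 TPM with control siRNA. All TAOK2 siRNA libraries were higher, and the log2 change was 0.40 ± 0.16 (limma adjusted p = 0.0905, and 0.00562 with batch as a block). TPM1 (15:63042632-63071915, plus strand) had 526, 792 and 630 TPM with TAOK2 siRNA, against 574, 580 and 682 TPM with control siRNA. Its groups overlapped, and the log2 change was 0.07 ± 0.24 (limma adjusted p = 0.868).

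Of the transgelins, TAGLN2 (1:159918107-159925732, minus strand), the form common in epithelial cells and leukocytes, had 1031, 1143 and 1062 TPM with TAOK2 siRNA, against 779, 798 and 777 TPM with control siRNA. The groups were well apart, a log2 change of 0.46 ± 0.06 (1.37-fold, limma adjusted p = 0.000520). TAGLN (11:117199321-117204782, plus strand), also called SM22-alpha and known as a smooth muscle marker, had 25.6, 105 and 54.1 TPM with TAOK2 siRNA, against 11.8, 12.2 and 20.3 TPM with control siRNA. All 3 TAOK2 siRNA libraries were higher, with a spread so wide that the log2 change of 1.81 ± 0.85 did not pass (limma adjusted p = 0.162, and 0.0374 with batch as a block). MYL9 (20:36541484-36551447, plus strand) was near the lower limit of the test, with 2.40, 4.58 and 3.96 TPM with TAOK2 siRNA, against 1.41, 0.688 and 1.58 TPM with control siRNA. Its log2 change on the TPM + 1 scale was 1.06 ± 0.38 (limma adjusted p = 0.0722, and 0.0198 with batch as a block). The smooth muscle and fibroblast markers, which MYL9 and TAGLN accompany in muscle, summed to 37.9 to 60.2 TPM with TAOK2 siRNA, against 43.4 to 49.4 TPM with control siRNA, and their part in these values was not tested.

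**Figure D1:**
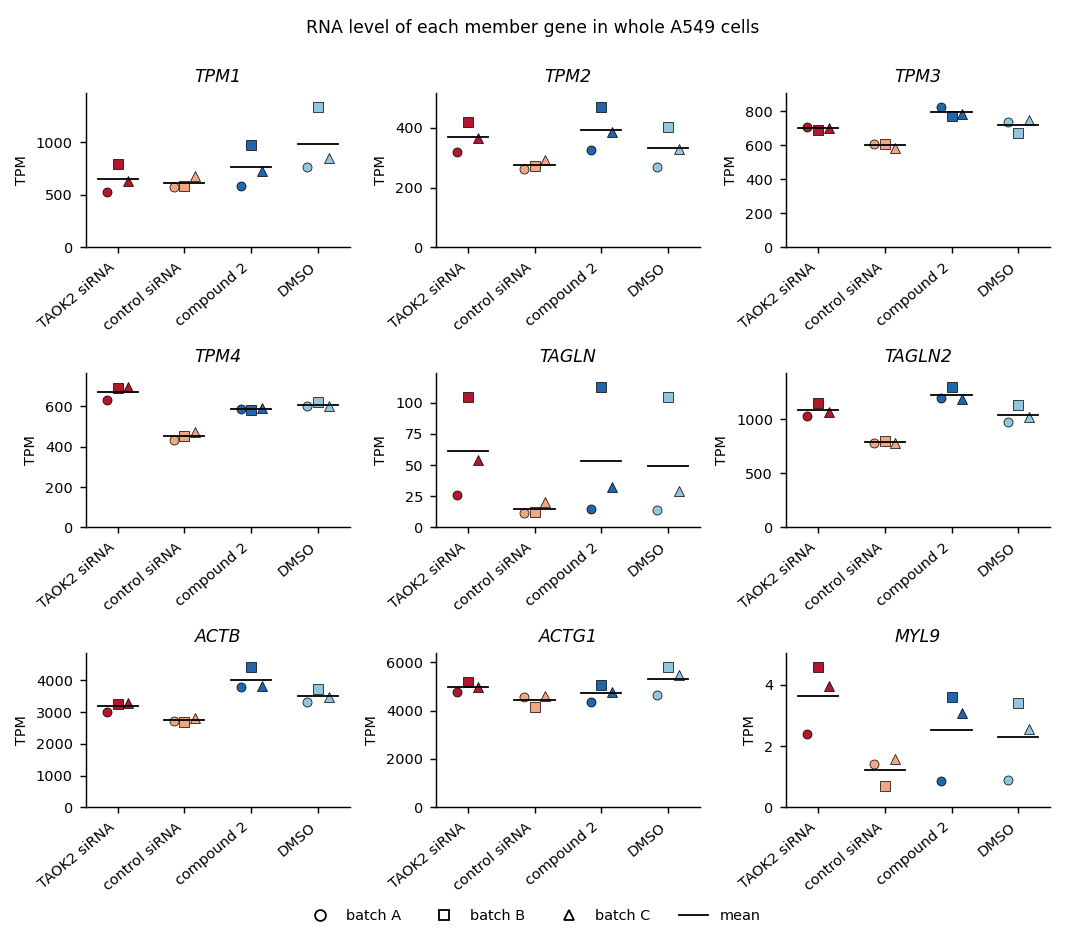
RNA level in TPM (y axes, from 0) of each of the 9 genes in whole cells, by group (x axes); each point is a library, its shape the batch, and the line the mean of 3. TPM4 and TAGLN2 lie higher in all TAOK2 siRNA libraries than in all control siRNA libraries, while TAGLN ranges from 11.8 to 112 TPM.

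TAGLN, MYL9, TPM1 and TPM2 differed between batches in 3 of the 4 groups in the same way. TAGLN in batch B stood at 105 TPM with TAOK2 siRNA, 112 TPM with compound 2 and 105 TPM with DMSO, and in batch A at 25.6, 14.8 and 14.3 TPM in the same groups. Control siRNA was the exception, with 11.8 TPM in batch A and 12.2 TPM in batch B, and its highest library for all 4 genes was that of batch C. Within batches A, B and C the log2 difference of TAGLN between TAOK2 siRNA and control siRNA was 1.06, 3.00 and 1.37. For MYL9 it was 0.50, 1.73 and 0.94, for TPM2 0.28, 0.61 and 0.31, and for TPM1 -0.13, 0.45 and -0.12. The difference was therefore largest in batch B for all 4 genes, where the control siRNA library is the one of doubtful pairing. The part of that library in the differences was not tested beyond leaving it out.

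The exons of TAGLN share 446 bases with exons of PCSK7, a protease gene on the opposite strand, which stood at 16.2 to 24.2 TPM in whole cells. No source used here says whether the authors' estimates used strand, so reads in those bases cannot be assigned with certainty. The transcript TAGLN-202, of which 23.8% of the length is shared, held 83.4% of TAGLN in whole cells, and TAGLN-205, which shares none, held little. No other member shares exon bases with a gene that had a listed transcript.

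**Figure D2:**
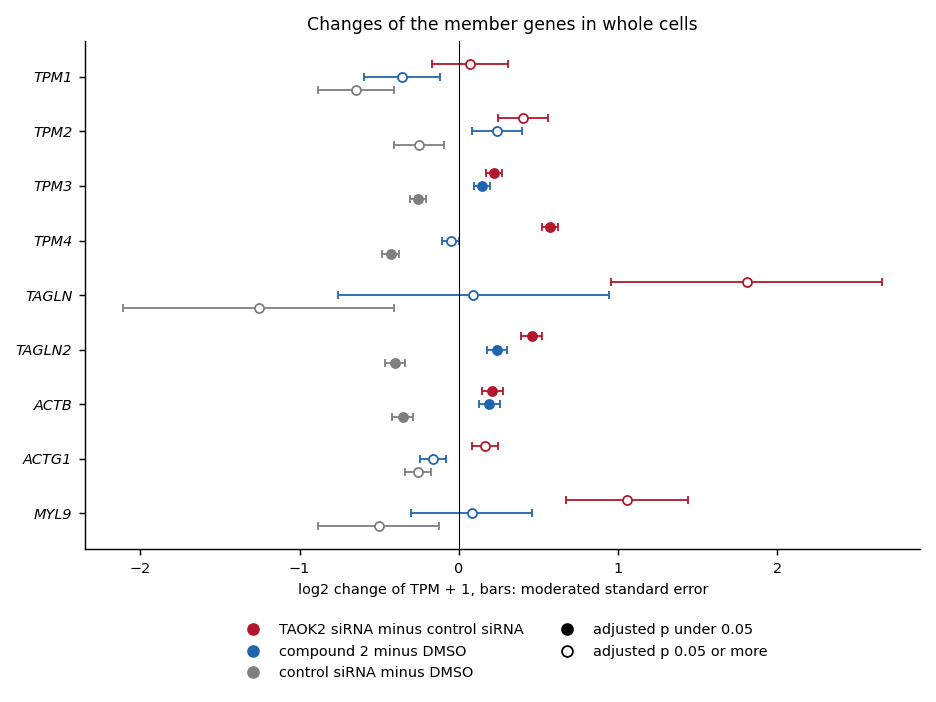
Log2 change of TPM + 1 (x axis) of each gene in whole cells for TAOK2 siRNA against control siRNA, compound 2 against DMSO, and control siRNA against DMSO, with moderated standard errors; filled points passed at an adjusted p under 0.05. TPM4 rose by 0.57 with TAOK2 siRNA and had a change of -0.05 with compound 2.

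With compound 2, 3 of the 9 genes were called higher than with DMSO, TAGLN2, ACTB and TPM3, and 0 lower. Of all genes tested 63.7% were called, 12% as higher and 51.8% as lower, and the median change of all genes was -0.31 on the log2 scale. When each library was centred on its median gene, 5662 genes were called higher and 3189 lower, in place of 1571 and 6783, the all-gene median became 0.19 and 6 of the 9 genes were higher, with TPM4, ACTG1 and TPM2 added. ACTB had 3798, 4419 and 3821 TPM with compound 2, against 3319, 3726 and 3489 TPM with DMSO, a log2 change of 0.19 ± 0.07 (limma adjusted p = 0.0239). TAGLN2 had 1196, 1294 and 1180 TPM with compound 2, against 972, 1126 and 1014 TPM with DMSO, a log2 change of 0.24 ± 0.06 (limma adjusted p = 0.00525). TPM3 had 824, 775 and 783 TPM with compound 2, against 735, 675 and 747 TPM with DMSO, a log2 change of 0.14 ± 0.05 (limma adjusted p = 0.0243). Neither ACTB nor TPM3 passed in every fit that left out 1 library, where their adjusted p reached 0.11 each.

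The other genes did not pass with compound 2. TPM4 had 587, 580 and 594 TPM with compound 2, against 602, 621 and 602 TPM with DMSO; the groups did not overlap, but the log2 change was -0.05 ± 0.05 (limma adjusted p = 0.410), and it was 0.46 after centring. TPM1 had 581, 972 and 730 TPM with compound 2, against 767, 1333 and 849 TPM with DMSO. It was lower with compound 2 within each batch, with log2 differences of -0.40, -0.46 and -0.22 in batches A, B and C, with a change of -0.36 ± 0.24 (limma adjusted p = 0.214) that became 0.15 after centring. ACTG1 had 4363, 5082 and 4775 TPM with compound 2, against 4666, 5806 and 5472 TPM with DMSO, a change of -0.16 ± 0.08 (limma adjusted p = 0.102) that became 0.35 after centring. TPM2 had 325, 469 and 388 TPM with compound 2, against 269, 402 and 329 TPM with DMSO. It was higher in each batch, with a log2 change of 0.24 ± 0.16 (limma adjusted p = 0.200, and 0.0252 with batch as a block). TAGLN had 14.8, 112 and 32.2 TPM with compound 2, against 14.3, 105 and 29.3 TPM with DMSO, and MYL9 0.874, 3.61 and 3.09 TPM, against 0.907, 3.41 and 2.55 TPM. In both genes the 2 libraries of a batch lay close together, and the changes of 0.09 ± 0.85 and 0.08 ± 0.38 were far inside their errors.

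The change with TAOK2 siRNA exceeded the change with compound 2 for 2 of the 9 genes, by 0.62 ± 0.07 for TPM4 (limma adjusted p = 2.07e-05) and 0.33 ± 0.12 for ACTG1 (limma adjusted p = 0.0296). Of all genes, 54.7% passed this test of the difference, 42.4% as higher and 12.3% as lower, or 5560 and 1614 genes, which became 2766 and 4674 after centring. For TPM4 the difference was 0.16 after centring (limma adjusted p = 0.211), and for ACTG1 it turned to -0.14, so neither held there. After centring 0 of the 9 genes had a larger change with TAOK2 siRNA and 3 had a smaller one: TPM3 by -0.39, ACTB by -0.445 and TAGLN2 by -0.25 (limma adjusted p = 0.00686, 0.00147 and 0.0437). Without centring, TAGLN2 had a difference of 0.22 ± 0.09 (limma adjusted p = 0.0557, and 0.00919 with batch as a block).

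The 2 kinds of control also differed. Control siRNA was lower than DMSO for 4 of the 9 genes, with log2 changes of -0.43 ± 0.05 for TPM4, -0.40 ± 0.06 for TAGLN2, -0.35 ± 0.07 for ACTB and -0.26 ± 0.05 for TPM3 (limma adjusted p = 0.00168, 0.00608, 0.0128 and 0.0150). Of all genes 6.43% were called in this comparison, 4.32% as higher and 2.11% as lower, or 566 and 277 genes, which became 421 and 354 after centring. With batch as a block 6 were lower, where 3.94% of all genes were; ACTG1 and TPM1 were added, with log2 changes of -0.26 and -0.64 (limma adjusted p = 0.0359 and 0.0226). This comparison and that of TAOK2 siRNA use the same control siRNA libraries, so their values are not independent. TPM4 stood at 633 to 696 TPM with TAOK2 siRNA, 431 to 473 TPM with control siRNA and 602 to 621 TPM with DMSO, and TAOK2 siRNA against DMSO was not tested. The share of no member transcript passed between control siRNA and DMSO with limma, 0 of 91, where 2 of all 40082 transcripts did, both higher (0.00499%), and 2616 had an unadjusted p under 0.05.

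With TAOK2 siRNA, the only member transcripts whose share passed were 2 of TPM2, which differ in the mutually exclusive exons 6a and 6b. The exon pair of TPM2 is shown because its balance differed with TAOK2 siRNA, and those of TPM1 and TPM3 are shown for comparison. Each exon has 76 bases in GRCh38 and is printed on its gene's strand from 5′ to 3′, with capitals at the bases that differ between the pair. TPM2 lies on the minus strand, with exon 6a at chr9:35685064-35685139 and exon 6b at chr9:35684732-35684807.
TPM2 exon 6a: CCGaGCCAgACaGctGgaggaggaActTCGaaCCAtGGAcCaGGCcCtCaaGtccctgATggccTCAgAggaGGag
TPM2 exon 6b: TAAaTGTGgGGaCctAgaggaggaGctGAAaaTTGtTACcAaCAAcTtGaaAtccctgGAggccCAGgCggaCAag
TPM1 lies on the plus strand, with exon 6a at chr15:63061198-63061273 and exon 6b at chr15:63061713-63061788.
TPM1 exon 6a: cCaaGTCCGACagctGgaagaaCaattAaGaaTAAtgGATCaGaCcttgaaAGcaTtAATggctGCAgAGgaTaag
TPM1 exon 6b: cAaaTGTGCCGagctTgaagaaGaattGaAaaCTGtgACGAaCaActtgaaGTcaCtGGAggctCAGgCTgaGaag
TPM3 lies on the minus strand, with exon 6a at chr1:154172029-154172104 and exon 6b at chr1:154171413-154171488.
TPM3 exon 6a: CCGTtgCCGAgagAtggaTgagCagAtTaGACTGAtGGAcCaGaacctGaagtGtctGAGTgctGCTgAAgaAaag
TPM3 exon 6b: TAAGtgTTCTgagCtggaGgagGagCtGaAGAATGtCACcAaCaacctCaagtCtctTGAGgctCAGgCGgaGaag
Within a gene the 2 exons share 40 of 76 bases in TPM2 and TPM3 and 43 of 76 in TPM1. The same exon is more alike across genes than the 2 exons are within one: 6b is 76.3% to 78.9% identical between genes and 6a 64.5% to 68.4%.

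With TAOK2 siRNA, exon 6a was in 72.6%, 71.9% and 73.1% of the TPM2 transcripts that held either exon, against 58.7%, 56.4% and 55.3% with control siRNA. The groups lay 15.7 percentage points apart and each spread over less than 4. An exact 2-sided permutation test gave p = 0.1, the smallest that 3 against 3 libraries allow, and 0.367 adjusted over 22 comparisons of 11 tropomyosin shares. Transcripts with exon 6a summed to 261 ± 32.7 TPM with TAOK2 siRNA, against 154 ± 5.25 TPM with control siRNA, and those with exon 6b to 98.9 ± 14.4 TPM, against 117 ± 11.6 TPM (SD, n = 3 each).

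The 2 transcripts behind this shift were called in the test across all transcripts. TPM2-204, which holds exon 6a and last exon 9d, made up 63.8%, 64.6% and 66.0% of TPM2 with TAOK2 siRNA, against 47.8%, 47.8% and 47.7% with control siRNA. Its log2 odds rose by 1.01 ± 0.10 (limma adjusted p = 0.00622, and 0.0258 with batch as a block). TPM2-201, which holds exon 6b and the same last exon, made up 23.0%, 23.1% and 22.9% of TPM2 with TAOK2 siRNA, against 35.3%, 37.0% and 39.5% with control siRNA. Its log2 odds fell, with a change of -0.99 ± 0.12 (limma adjusted p = 0.0169), a call lost with batch as a block (0.0518) and in 5 of the 6 fits that left out 1 library of these groups. Its adjusted p was 0.0679 without the control siRNA library of batch B, 0.0833 without that of batch C, and 0.0729, 0.0776 and 0.0829 without the TAOK2 siRNA libraries of batches A, B and C. TPM2-204 was called in all 6, at an adjusted p of up to 0.0437. They were 2 of the 91 member transcripts tested, where 32 of all 40082 transcripts, 0.0798%, were called in this comparison, 0.0449% as higher and 0.0349% as lower; by p they ranked 4 and 7 among those 32, which came from 24 genes.

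With compound 2 the exon 6a share of TPM2 was 56.2%, 53.6% and 55.8%, against 55.6%, 51.2% and 52.8% with DMSO. These groups overlapped, and the difference was 2.01 points (exact 2-sided permutation p = 0.2, adjusted 0.489). Both controls and compound 2 thus lay between 51.2% and 58.7%, below all TAOK2 siRNA libraries. In the fractionation experiment the share was already 70.9% or more in every library: 72.2% and 75.8% in total RNA with TAOK2 siRNA, against 71.8% and 77.5% with control siRNA. It was 74.1% and 72.6% in nuclear RNA with TAOK2 siRNA, against 75.6% and 70.9% with control siRNA, and 77.5% and 76.4% in cytoplasmic RNA, against 75.6% and 81.1%. The groups overlapped in all 3 RNA kinds, and the shift of whole cells was not seen there.

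**Figure D3:**
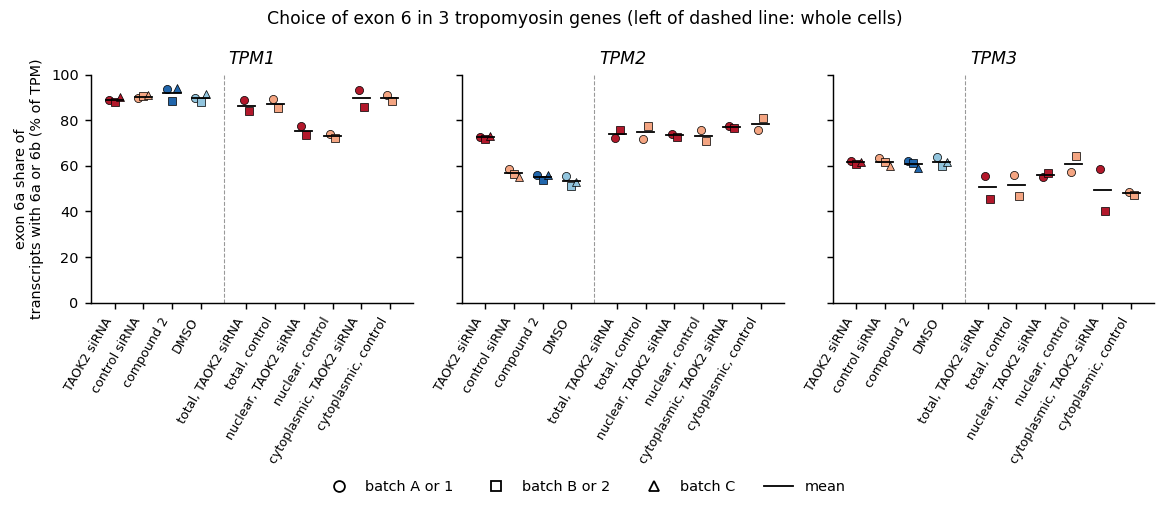
Share of exon 6a (y axis, % of the TPM of transcripts that hold exon 6a or 6b) in TPM1, TPM2 and TPM3 by group, whole cells left of the dashed line and fractionation libraries right of it; points are libraries and lines are means. In TPM2 the TAOK2 siRNA libraries of whole cells sit at 71.9% to 73.1%, above the 51.2% to 58.7% of the other whole-cell libraries, and fractionation libraries lie at 70.9% to 81.1%.

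In the other tropomyosins with this pair the shares of the groups lay close together. In TPM1 the exon 6a share averaged 88.9% with TAOK2 siRNA and 90.4% with control siRNA, and in TPM3 it averaged 61.6% in both groups. Of the 11 shares, 4 did not overlap between TAOK2 siRNA and control siRNA: besides TPM2 exon 6a these were the last exon 9d of TPM2 (96.2% against 94.1%), exon 2a of TPM1 (7.37% against 5.63%) and last exon 9d of TPM4 (99.8% against 99.7%). Of all single transcripts, 17.5% had shares that did not overlap between these groups. Each had the same smallest possible exact permutation p of 0.1, and the differences of TPM1 exon 2a and TPM4 exon 9d lost their separation when only protein-coding transcripts were counted. The long form of TPM1, from first exon 1a, held 65.7% to 78.4% with TAOK2 siRNA, against 65.4% to 75.7% with control siRNA. TPM3 and TPM4 were made almost wholly from first exon 1b in whole cells, with group means of exon 1a of at most 0.020% in TPM3 and 0.74% in TPM4; in the fractionation libraries exon 1a reached 5.21% in TPM3 and 2.94% in TPM4.

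Each gene was carried by a few transcripts. TPM1-206 held 59.2% of TPM1 in whole cells and TPM1-208 12.2%, TPM4-219 66.2% of TPM4 and TPM4-201 29.2%. TPM3 was split among TPM3-219, annotated as a target of nonsense-mediated decay, with 38.1%, and the coding transcripts TPM3-206 with 34.8% and TPM3-205 with 16.1%. TAGLN2-203 held 79.2% of TAGLN2, ACTG1-206 58.0% of ACTG1 and MYL9-202 79.7% of MYL9. ACTB-201 and ACTB-218 had equal estimates, within 1%, in 24 of 24 libraries, at 49.1% each, so those 2 cannot be told apart here.

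With compound 2, 25 of the 91 member transcripts tested had a changed share, 6 higher and 19 lower. This was not more than the 34.7% of all transcripts that were called, 16.8% as higher and 17.9% as lower. With a filter that instead kept transcripts holding at least 5% of their gene or averaging at least 5 TPM, 51 member transcripts were tested and 10 called, 3 higher and 7 lower, where 32.8% of all transcripts were called. All 19 that fell belong to TPM1, TPM2 and TPM4, and 11 of them are annotated with another biotype than protein_coding, mostly retained introns. TPM1-226, annotated as coding and with a 3′ end of its own, made up 0.744%, 1.04% and 0.771% of TPM1 with compound 2, against 6.63%, 5.53% and 5.07% with DMSO. This was one of the strongest shifts, with a change in log2 odds of -2.73 ± 0.19 (limma adjusted p = 1.23e-06). The minor transcripts named next, each under 5% of its gene, were picked after their values were seen. TPM1-229, a retained-intron transcript, made up 0.0325%, 0.0609% and 0.0160% of TPM1 with compound 2, against 0.558%, 0.750% and 0.631% with DMSO, a change of -2.75 ± 0.24 (limma adjusted p = 6.73e-06). TPM2-205, which retains an intron of TPM2, made up 0.244%, 0.541% and 0.200% with compound 2, against 1.71%, 1.69% and 1.17% with DMSO, a change in log2 odds of -1.93 ± 0.29 (limma adjusted p = 0.00034). TPM4-206, likewise a retained-intron transcript, made up 0.0172%, 0.0603% and 0.0591% of TPM4 with compound 2, against 0.228%, 0.276% and 0.283% with DMSO. In each of these 3 the groups did not overlap; the gap was narrowest, relative to the spread of the DMSO libraries, in TPM2-205.

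The 6 that rose with compound 2 were TPM1-201, TPM1-221, TPM1-232, ACTB-213, ACTB-216 and ACTG1-217. TPM1-221, which holds both exon 6a and exon 6b and is annotated as a target of nonsense-mediated decay, had 4.53, 16.9 and 7.22 TPM with compound 2, and at most 0.671 TPM with DMSO. ACTB-213 made up 0.808%, 0.871% and 1.07% of ACTB with compound 2, against 0.377%, 0.512% and 0.454% with DMSO, a rise of 1.02 ± 0.24 in log2 odds (limma adjusted p = 0.0067). All these remained small parts of their genes. The main transcripts did not pass: TPM1-206, TPM2-204 and TPM4-219 had changes of -0.02 ± 0.21, 0.14 ± 0.10 and 0.06 ± 0.16 in log2 odds.

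Summed over biotypes, the protein-coding share rose with compound 2 in 2 of the 7 genes with both classes, TPM2 by 1.58 ± 0.24 and TPM4 by 0.73 ± 0.14 in log2 odds (limma adjusted p = 0.000202 and 0.000871), and in 0 of 7 with TAOK2 siRNA. Over all genes tested for this with limma, 42.7% were called with compound 2 (17% as higher) and 0.22% with TAOK2 siRNA, where 764 had an unadjusted p under 0.05. Retained-intron transcripts held 0.34%, 0.79% and 0.50% of TPM2 with compound 2, against 2.62%, 2.22% and 1.80% with DMSO. In TPM4 they held 0.19%, 0.22% and 0.15% with compound 2, against 0.70%, 0.61% and 0.63% with DMSO. The share of TPM1 ending in last exon 9d was 94.8%, 94.4% and 95.3% with compound 2, against 87.4%, 87.0% and 89.5% with DMSO. This was a difference without overlap, of 6.91 points (exact 2-sided permutation p = 0.1, the smallest possible, and 0.367 adjusted over 22 comparisons). With only protein-coding transcripts counted it was 4.85 points, again without overlap. How many of all transcripts had shares without overlap between compound 2 and DMSO was not counted. Among groups of coding transcripts that share a start, 6 of 21 changed with compound 2, where 37.6% of all such groups did: the main starts of TPM2 and TPM4 gained 1.03 ± 0.19 and 1.02 ± 0.25 in log2 odds, and 4 starts inside TPM1, TPM2 and TPM4 lost share.

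In the fractionation experiment MYL9 stayed at or under 0.34 TPM and was not tested. Of the other 8 genes, 0 passed for TAOK2 siRNA against control siRNA in total, nuclear or cytoplasmic RNA with limma, where 0, 2 and 0 of all 13751 genes did (0%, 0.0145% and 0%); 917, 1328 and 933 genes had an unadjusted p under 0.05. With batch as a block 1, 4 and 3 of the 8 genes were higher in total, nuclear and cytoplasmic RNA, where 1.66%, 2.77% and 1.49% of all genes were higher and 0.807%, 3.13% and 1.45% lower. TPM4 had 445 and 522 TPM in total RNA with TAOK2 siRNA, against 321 and 313 TPM with control siRNA. It had 298 and 324 TPM in nuclear RNA with TAOK2 siRNA, against 214 and 239 TPM with control siRNA, and 440 and 516 TPM in cytoplasmic RNA, against 309 and 346 TPM. Its log2 changes of 0.60 ± 0.15, 0.46 ± 0.15 and 0.54 ± 0.15 were close to the 0.57 of whole cells, and their adjusted p was 0.0168, 0.0294 and 0.0211 with batch as a block.

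TAGLN2 was also higher with TAOK2 siRNA in both libraries of each RNA kind. It had 422 and 344 TPM in total RNA with TAOK2 siRNA, against 303 and 258 TPM with control siRNA. In nuclear RNA it had 235 and 213 TPM with TAOK2 siRNA, against 123 and 119 TPM with control siRNA, a log2 change of 0.88 ± 0.15 (limma adjusted p = 0.113, and 0.00371 with batch as a block). The change in cytoplasmic RNA was 0.57 ± 0.15 (limma adjusted p = 0.380, and 0.0204 with batch as a block). TPM3 behaved alike, with 175 and 157 TPM in nuclear RNA with TAOK2 siRNA, against 112 and 102 TPM with control siRNA (log2 change 0.63 ± 0.17, limma adjusted p = 0.260, and 0.00867 with batch as a block). In cytoplasmic RNA TPM3 had a change of 0.40 ± 0.17 (limma adjusted p = 0.722, and 0.0452 with batch as a block), and in nuclear RNA ACTB had one of 0.51 ± 0.31 (0.701, and 0.0190 with batch as a block). The summed level of the 13 smooth muscle and fibroblast markers was higher in the same groups. It was 77.3 to 88.1 TPM in total RNA with TAOK2 siRNA, against 54.1 to 60.7 TPM with control siRNA, 60.3 to 61.4 TPM in nuclear RNA, against 43.4 to 44.8 TPM, and 79.5 to 83.5 TPM in cytoplasmic RNA, against 55.7 to 56.2 TPM. Of the 6 that could be tested 1 passed, in nuclear RNA only. ACTA2, one of the 13, had changes of -0.18 in total RNA, 0.13 in nuclear RNA and -0.05 in cytoplasmic RNA on the log2 scale, and it did not pass; LUM, a fibroblast proteoglycan, reached 44.7 TPM, and MYH11 and DES did not pass 0.342 and 0.603 TPM. Their part in the result was not tested.

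**Figure D4:**
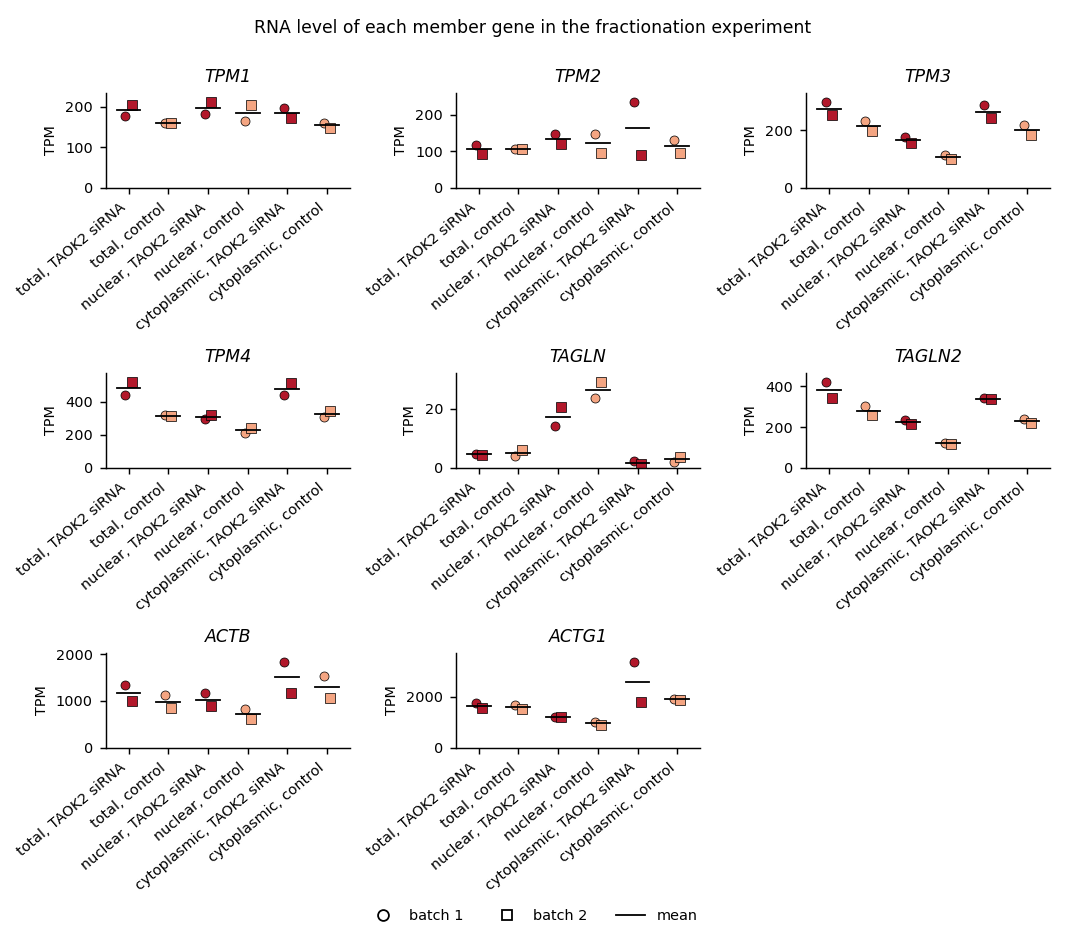
RNA level in TPM (y axes, from 0) of the 8 tested genes in total, nuclear and cytoplasmic RNA with TAOK2 siRNA or control siRNA (x axes); each point is a library, its shape the batch, and the line the mean of 2. TPM4 and TAGLN2 lie higher with TAOK2 siRNA in every RNA kind, and TAGLN is highest in nuclear RNA, at 14.1 to 29.03 TPM.

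Several of these messages were lower in nuclear than in cytoplasmic RNA. In cells with control siRNA, 4 of the 8 genes were lower in nuclear RNA (ACTG1, TAGLN2, TPM3 and TPM4) and 1 was higher (TAGLN); of all genes 48.7% were called, 29.8% as higher and 18.9% as lower, or 4101 and 2598 genes, which became 2779 and 4095 after centring. ACTG1 had 1011 and 892 TPM in nuclear RNA, against 1918 and 1855 TPM in cytoplasmic RNA, a log2 change of -0.99 ± 0.26 (limma adjusted p = 0.0135). Much of its cytoplasmic level was assigned to retained-intron transcripts, in a share that differed between batches (given below). The bearing of that share on the change was not tested. TAGLN2 had 123 and 119 TPM in nuclear RNA, against 237 and 220 TPM in cytoplasmic RNA, a change of -0.91 ± 0.15 (limma adjusted p = 0.00147), and TPM3 changed by -0.89 ± 0.17 (0.00293) and TPM4 by -0.53 ± 0.15 (0.0201). ACTB had 835 and 615 TPM in nuclear RNA, against 1540 and 1054 TPM in cytoplasmic RNA, and its change of -0.83 ± 0.31 passed with batch as a block but not without (limma adjusted p = 3.77e-05 and 0.0535). TPM1 and TPM2 had changes of 0.24 ± 0.16 and 0.08 ± 0.41, which turned to -0.14 and -0.30 when libraries were centred on their median gene. Messages encoded by mitochondria, which are not nuclear, made up 365194 to 424867 TPM in nuclear libraries, against 81008 to 139131 TPM in cytoplasmic ones, which leaves less of the fixed total for all other messages. Their part in these differences was not tested.

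TAGLN had 23.4 and 29.03 TPM in nuclear RNA, against 2.00 and 3.68 TPM in cytoplasmic RNA, with control siRNA. Nuclear levels were several times higher in both batches, and the log2 change was 2.85 ± 0.30 (7.22-fold, limma adjusted p = 0.000134). The coding transcript TAGLN-202 made up 5.57% and 4.66% of TAGLN in nuclear RNA, against 33.0% and 26.2% in cytoplasmic RNA, a change in log2 odds of -2.89 ± 0.33 (limma adjusted p = 0.00026). In nuclear RNA the gene was instead mostly TAGLN-205, a short transcript annotated as coding, with 8.35 and 14.9 TPM, and the retained-intron transcript TAGLN-208 with 4.49 and 3.99 TPM. TAGLN-205 shares 0 exon bases with PCSK7 and TAGLN-208 shares 12.9% of its length. The effect of TAOK2 siRNA on the nuclear to cytoplasmic ratio passed for 0 of the 8 genes (0% of all genes with limma; 184 genes had an unadjusted p under 0.05).

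Within the genes, 38 of 69 member transcripts differed in share between nuclear and cytoplasmic RNA, 32 higher and 6 lower in nuclear RNA, where 36.1% of all transcripts did, 22.1% as higher and 14% as lower. The 19 called transcripts of other biotypes than protein_coding were all higher in nuclear RNA. Retained-intron transcripts held 36.3% and 39.9% of TPM1 in nuclear RNA, against 2.33% and 2.68% in cytoplasmic RNA, and 16.0% and 11.6% of TPM2 in nuclear RNA, against 0.24% and 0.23% in cytoplasmic RNA. TPM1-226 made up 9.25% and 13.8% of TPM1 in nuclear RNA, against 0.444% and 1.26% in cytoplasmic RNA. The main coding transcript TPM1-206 did the opposite, with 15.2% and 22.5% in nuclear RNA, against 51.2% and 65.1% in cytoplasmic RNA (log2 odds -2.59 ± 0.41, limma adjusted p = 0.00157). The share of TPM1 with last exon 9d was 64.8% and 59.7% in nuclear RNA, against 97.4% and 96.5% in cytoplasmic RNA, and that of exon 6a 74.1% and 72.1%, against 91.2% and 88.5%. These exon shares count transcripts of every biotype, retained-intron ones included, so they do not measure exon choice among coding transcripts alone.

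Of the 19 member transcripts that lost share with compound 2, 13 were among those that were higher in nuclear RNA, which is 68.4% of the first list and 40.6% of the second, whose size is 32. Of the 19, 15 were tested in both experiments, and 13 of these 15 (86.7%) were higher in nuclear RNA. None of the 19 was lower there. Of the 56 member transcripts tested in both, 29 (51.8%) were higher in nuclear RNA. Of all 27289 transcripts tested in both, 19.5% were higher in nuclear RNA, and of the 5603 of these that lost share with compound 2, 27.3% were. The difference between the members and all transcripts was not tested. The 13 belong to TPM1 (6), TPM2 (4) and TPM4 (3) and include TPM1-226, TPM1-229, TPM2-205 and TPM4-209. The 2 comparisons share no library. TPM4-209, which starts inside the gene, made up 10.7% and 13.0% of TPM4 in nuclear RNA, against 0.206% and 0.242% in cytoplasmic RNA, and fell by 0.92 in log2 odds with compound 2 (limma adjusted p = 0.0123).

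**Figure D5:**
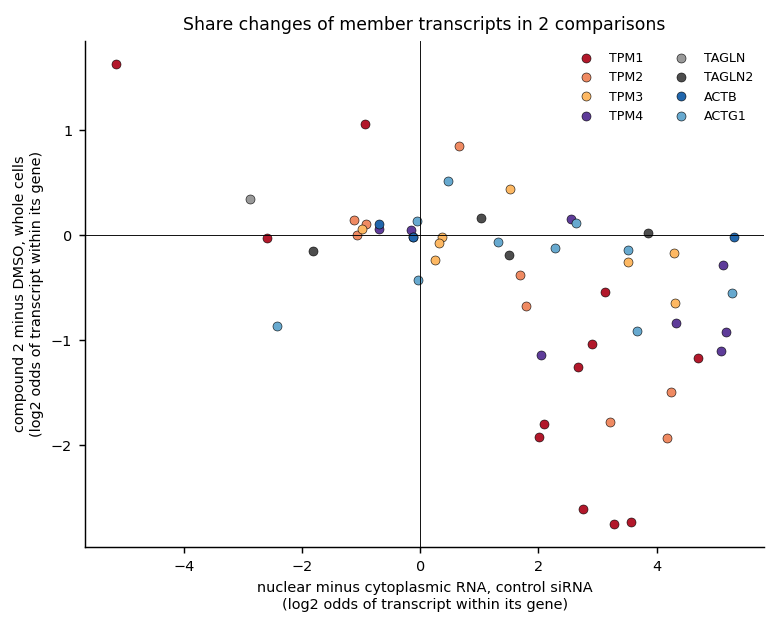
Change in log2 odds of each member transcript within its gene for compound 2 minus DMSO in whole cells (y axis) against nuclear minus cytoplasmic RNA with control siRNA (x axis); each point is 1 of 56 transcripts tested in both, coloured by gene. Transcripts of TPM1, TPM2 and TPM4 fill the lower right, where TPM1-226 lies at -2.73 with compound 2 and 3.56 in nuclear RNA.

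The windows of RefSeq gene starts (GRCh38.p14), from 250 bases before to 50 after a start, matched 6 of the 9 genes with 12 windows and were searched for the CArG box, CC and GG around 6 bases of A or T, a motif that reads alike on both strands, because the 9 genes include known SRF targets. No window was matched for ACTB, TAGLN and MYL9, and the only TPM1 window lies at the start of exon 1b. The start of exon 1a, which held most of TPM1 in whole cells, was therefore not searched. The box was found in 2 of the 12 windows, and in 454 of 35116 windows of all genes (1.29%). In ACTG1 it lies 94 bases before the start, and in TPM4 it lies 173 bases before the start of exon 1a, the start that held under 1% of TPM4 in whole cells. Both are printed on the gene's strand with the box in capitals, ACTG1 from the minus strand at chr17:81512859-81512918 and TPM4 from the plus strand at chr19:16067340-16067399. A match is a match of letters only.
ACTG1: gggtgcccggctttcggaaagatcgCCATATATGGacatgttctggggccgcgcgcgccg
TPM4: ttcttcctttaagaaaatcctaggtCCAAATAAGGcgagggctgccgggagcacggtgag

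Other genes of the actin cytoskeleton were taken from lists chosen with earlier results of these data known. Of the contractile and SRF-linked list, which holds 7 of the 9 genes, 29 were tested, and 11 rose and 1 fell with TAOK2 siRNA. Without the 7 members 9 of 22 rose and 1 fell, where 7.78% of all genes were higher and 14.4% lower. The median log2 change of these 22 was 0.22, against -0.05 for all genes. Between control siRNA and DMSO the same 22 had 1 higher and 5 lower, where 4.32% of all genes were higher and 2.11% lower. Their median there was -0.37, against 0.0082 for all genes, and both comparisons use the same control siRNA libraries. CALD1, the caldesmon that binds tropomyosin, averaged 171 ± 19.4 TPM with TAOK2 siRNA and 107 ± 0.722 TPM with control siRNA (SD, n = 3 each; log2 change 0.67 ± 0.12, limma adjusted p = 0.00241). ACTA2, smooth muscle alpha-actin and the only other actin or transgelin gene that could be tested, fell to 10.8 ± 1.18 TPM with TAOK2 siRNA, against 17.7 ± 1.09 TPM with control siRNA (-0.66 ± 0.13, 0.00408). It also fell with compound 2, to 7.46 ± 1.03 TPM, against 12.1 ± 2.18 TPM with DMSO (-0.62 ± 0.13, limma adjusted p = 0.00103). Between the controls ACTA2 was called higher with control siRNA than with DMSO, by 0.52 on the log2 scale. With compound 2 the list had 1 gene higher and 13 lower of 22 without the members, where 12% of all genes were higher and 51.8% lower. The median of the 22 was -0.42, against -0.31 for all genes. SMTN, smoothelin, averaged 7.85 ± 3.17 TPM with compound 2 and 21.3 ± 5.84 TPM with DMSO (-1.36 ± 0.26, 0.000694).

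Genes of filament turnover and of the Arp2/3 complex, which nucleates branched filaments, mostly did not pass with TAOK2 siRNA. Of 28 turnover genes 3 rose and 1 fell, led by TMSB10, which binds actin monomers (log2 change 0.50 ± 0.06, limma adjusted p = 0.000223), and DSTN, which severs filaments (0.37 ± 0.06, 0.00107). Of 17 Arp2/3 genes 2 rose and 1 fell, led by the subunit ARPC5 (0.52 ± 0.07, 0.000290). Over all genes 7.78% were called higher and 14.4% lower in this comparison. With compound 2 the turnover genes had 8 higher and 9 lower and the Arp2/3 genes 1 higher and 4 lower. Over all genes 12% were called higher and 51.8% lower there. ARPC5 had a change of -0.33 ± 0.07 that turned to 0.18 after centring.

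Of 15 splicing regulators known to act on tropomyosin exons, 1 rose and 3 fell with TAOK2 siRNA, which is near the share of all genes (7.78% higher and 14.4% lower). MBNL1 averaged 97.6 ± 1.33 TPM with TAOK2 siRNA and 77.1 ± 3.66 TPM with control siRNA (log2 change 0.34 ± 0.07, limma adjusted p = 0.00565), and SRSF1 averaged 201 ± 3.08 TPM with TAOK2 siRNA and 245 ± 24.2 TPM with control siRNA (-0.28 ± 0.08, 0.0259). RBFOX3, at 5.95 ± 2.51 TPM with TAOK2 siRNA and 26.6 ± 10.6 TPM with control siRNA, and RBPMS2 changed by -1.96 ± 0.49 and -0.51 ± 0.15. With compound 2, 2 rose and 5 fell, where 12% of all genes rose and 51.8% fell: SRSF1 changed by -0.67 ± 0.08 (1.08e-05), MBNL2 by -1.94 ± 0.18 (1.08e-06) and HNRNPF by -0.55 ± 0.08 (7.32e-05), and PTBP2 by 0.64 ± 0.10 (8.81e-05), which was -0.32 when only its protein-coding transcripts were summed. Whether any of these acts on TPM2 exon 6 here was not tested.

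Over all 24 libraries, the genes whose log2 levels followed ACTB most closely among 7289 with at least 10 TPM in both experiments were MAPKAPK2, YBX1 and MTCH1, at a root mean square difference of 0.17, 0.18 and 0.18, where ACTB itself varied by 0.32 about its means. For TPM1, which varied by 0.28, they were TP53I3, ANXA8 and LOXL2, at 0.20, 0.21 and 0.22. For TAGLN, which varied by 1.18, SLC25A37 and the clone AC135983.2 were among the closest, at 0.72 and 0.74.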

How the data were processed

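The authors' deposited tables, 1 per experiment, give TPM for each transcript, made with kallisto on GRCh38.p14, per the submitters' processing notes; neither its version nor its strand setting is named in the sources used here. The labels' protocols state polyadenylated RNA and at least 100000000 reads. Every library sums to 1000000 TPM, so no counting interval can be given. Of 188753 listed transcripts, 169797 (90.0%) matched GENCODE 29 and were summed to 35579 genes. Features averaging at least 1 TPM in a table's 12 libraries entered limma 3.58.1 (R 4.3.3). Genes were fitted on log2(TPM + 1) and shares on log2 odds with 0.5 TPM added, with a mean per group, empirical Bayes moderation (trend, robust) and Benjamini-Hochberg adjustment at 0.05 within a comparison. Over that minimum were 92 member transcripts in whole cells, of which 91 could be tested for shares, and 69 in fractions. Tropomyosin exon shares came from annotated exons of transcripts of every biotype and were compared by exact permutation. The fits were tested on simulated data. Members, lists and named genes were chosen with earlier results of these data known. The rule named all 9 members, transcripts with at least 5% of their gene in a table, up to 4 genes per list by adjusted p, and the 3 genes most like TPM1, TAGLN and ACTB; some of these are not reported here.

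Groups and batches come from the labels. Residuals correlated between libraries of a shared batch by 0.531 to 0.837 in fractions, over 0.1 in 30 of 30 pairs. With 2 libraries per group the residuals of batches 1 and 2 mirror each other. Each value among those 30 therefore stands once for either batch, and the pairs are not independent. In whole cells the correlation was -0.302 to 0.639, over 0.1 in 12 of 18 pairs. Values with batch as a block stand beside the member genes whose call they change. Alternatives were a pseudocount of 0.1, other filters, centring on the median gene, protein-coding transcripts only, and leaving out each library.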

Additional observations from a re-analysis of the deposited data

Results flagged for a closer look

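The differences of TAGLN between TAOK2 siRNA and control siRNA had opposite directions in whole cells and in nuclear RNA. In whole cells its level was higher with TAOK2 siRNA than with control siRNA in all 3 batches. In nuclear RNA it had 14.1 and 20.4 TPM with TAOK2 siRNA, against 23.4 and 29.03 TPM with control siRNA, lower in both batches, with a mean log2 difference of -0.59. In total RNA of the same experiment the log2 difference was 0.20 in batch 1 and -0.37 in batch 2. In cytoplasmic RNA it was 0.078 and -1.01, so the rise of whole cells was not seen in both batches of any RNA kind. The difference between the experiments was not tested. Neither change passed on its own with limma, at an adjusted p of 0.162 in whole cells and 0.598 in nuclear RNA.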

How the results depend on the processing

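Counts of member genes moved by over 1.5 times as follows, and the cause was not tested. With batch as a replicate block, 7 genes were called for TAOK2 siRNA against control siRNA in whole cells, and 1, 4 and 3 in total, nuclear and cytoplasmic RNA. With the same block 1 transcript, TPM2-204, had a changed share with TAOK2 siRNA, where 6 of all 40082 transcripts did. After centring on the median gene, 6 genes were called with compound 2. The difference between the TAOK2 siRNA and compound 2 effects was called for 1 gene without a filter and for 1 with protein-coding transcripts only. Of all genes, 7692 of 28871 and 6672 of 11854 were called in those fits. Another filter on low transcripts left 10 called with compound 2 and 16 in nuclear against cytoplasmic RNA. Of all transcripts, 13006 of 39684 and 12209 of 43253 were called there. Counting every biotype gave 16 start groups and 14 end groups with compound 2. Of all such groups, 6886 of 15499 starts and 10825 of 25625 ends were called.

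Centring turned these log2 changes with compound 2: TPM1 to 0.15, TPM4 to 0.46, ACTG1 to 0.35, ARPC5 to 0.18, CTTN to 0.29 and WASF2 to 0.26. It turned the difference between the effects to -0.038 for TPM1, -0.30 for TPM2, -0.39 for TPM3, -0.25 for TAGLN2, -0.445 for ACTB and -0.14 for ACTG1, and nuclear minus cytoplasmic to -0.14 for TPM1 and -0.30 for TPM2. With protein-coding transcripts only, PTBP2 was -0.32 with compound 2, the change of ACTG1 in total RNA was -0.0079, those of TPM1 and TPM2 in nuclear minus cytoplasmic RNA -0.69 and -0.16, the effect on the ACTG1 ratio 0.044, and the TPM4 exon 9d difference -0.0056 points. A pseudocount of 0.1 turned the effect on the TAGLN ratio to 0.033.

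Leaving out 1 library gave 1 to 4 genes for the difference between effects, 2 to 5 for control siRNA against DMSO, 3 to 4 for nuclear against cytoplasmic RNA, and 1 to 2 transcripts for TAOK2 siRNA. Signs turned for uncalled changes: with TAOK2 siRNA TPM1 was -0.084 to 0.21; with compound 2 TAGLN was -0.68 to 0.86 and MYL9 -0.27 to 0.48; the difference for ACTB was -0.024 to 0.091. In total RNA TPM2 was -0.20 to 0.16, TAGLN -0.33 to 0.17 and ACTG1 -0.027 to 0.13. In nuclear RNA TPM1 was -0.047 to 0.26 and TPM2 -0.15 to 0.46, and in cytoplasmic RNA TPM2 was -0.31 to 1.06, ACTB -0.12 to 0.53 and ACTG1 -0.089 to 0.83. Nuclear minus cytoplasmic TPM2 was -0.22 to 0.39. The effect on the ratio was -0.30 to 0.010 for TPM1, -0.91 to 0.46 for TPM2, -0.20 to 0.029 for TPM4, -0.45 to 0.19 for TAGLN, -0.018 to 0.63 for ACTB and -0.51 to 0.42 for ACTG1. In fractions this leaves an arm with 1 library, which is assumed to vary like the other groups. Read depth is unknown, which limits MYL9 and the minor transcripts most.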

Other observations

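The make-up of some genes differed between the experiments when the 12 libraries of each were pooled. TAGLN-202 held 13.3% of TAGLN in the fractionation libraries, where TAGLN-205 held 40.4%, against 83.4% for TAGLN-202 in whole cells. Nuclear RNA weighs most in that pooled fractionation share. TAGLN stood at 14.1 to 29.03 TPM in nuclear RNA and at 1.32 to 6.01 TPM in total and cytoplasmic RNA. Total RNA alone was not compared with whole cells. TPM4-219 held 21.3% of TPM4 in the fractionation libraries, where TPM4-205 held 54.0%, against 66.2% for TPM4-219 in whole cells. The level of TPM1 was 149 to 212 TPM in the fractionation libraries and 526 to 1333 TPM in whole cells. The tables were estimated and scaled separately, and these differences were not tested.

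ACTG1 was split by batch in the fractionation experiment. In cytoplasmic RNA its retained-intron transcripts held 0.67% in batch 1 and 58.4% in batch 2 with TAOK2 siRNA, against 26.8% in batch 1 and 61.0% in batch 2 with control siRNA. In whole cells they held at most 1.115%.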
